A study of Mus musculus with 14 samples.

Results

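The insulin receptor signalling chain was followed through 9 genes of mouse epididymal fat: the receptor Insr, its substrates Irs1 and Irs2, the receptor inhibitor Grb14, the PI3-kinase subunit Pik3r1, the kinases Akt1 and Akt2, and the Akt targets Pde3b and Foxo1. They were listed by name as steps of the pathway, and all 9 were measured among the 19937 genes tested. Each was read from its probe set of highest mean over 14 arrays, 1 array per mouse, of RNA from the whole fat pad. The mice were male C57BL6/J, either wild type (WT) or of the genotype named EKO, which the labels tie to apolipoprotein E; the allele itself is not given in the sources used here. They ate a normal diet (ND) or a Western diet (named HFD; Harlan diet TD88137, with 42% anhydrous milk fat), begun at 8 weeks of age and kept up for 24 weeks. The groups were WT on normal diet (3 arrays), WT on Western diet (3 arrays), EKO on normal diet (4 arrays) and EKO on Western diet (4 arrays). The design sets Western against normal diet within each genotype, EKO against WT within each diet, and the 2 diet effects against each other.

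In a fat cell, insulin binds its receptor, a tyrosine kinase that phosphorylates the IRS adaptor proteins. These recruit PI3-kinase, whose lipid product brings Akt to the membrane to be activated. Akt then promotes glucose uptake, restrains lipolysis in part through the cyclic AMP phosphodiesterase PDE3B, and keeps the transcription factor FOXO1 out of the nucleus. FOXO1 can raise transcription of Insr and Irs2, so the transcripts are themselves under the pathway's control.

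Promoter sequences are shown for the substrates, because known insulin-responsive motifs lie close together in them, and, for contrast, for Foxo1 and Grb14, which held none of the motifs. The RefSeq promoter table (build GRCm38.p6) held 7 of the 9 genes, in 12 windows of 250 bases before a transcript start. Sequences run 5′ to 3′ on the gene's strand and the last base is the one before the start. Capitals mark matches on either strand to TGTTTAC (FoxO site), TGTTTTG (insulin response element) or CACGTG (E-box). The windows are chr1:82291440-82291689 (minus strand) for Irs1, chr8:11008930-11009179 (minus) for Irs2, chr3:52268087-52268336 (plus) for Foxo1 and chr2:65022767-65023016 (minus) for Grb14.
Irs1: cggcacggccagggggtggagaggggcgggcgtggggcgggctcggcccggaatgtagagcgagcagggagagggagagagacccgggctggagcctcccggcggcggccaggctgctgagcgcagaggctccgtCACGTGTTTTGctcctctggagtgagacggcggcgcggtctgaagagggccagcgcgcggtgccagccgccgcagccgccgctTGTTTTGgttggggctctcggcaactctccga
Irs2: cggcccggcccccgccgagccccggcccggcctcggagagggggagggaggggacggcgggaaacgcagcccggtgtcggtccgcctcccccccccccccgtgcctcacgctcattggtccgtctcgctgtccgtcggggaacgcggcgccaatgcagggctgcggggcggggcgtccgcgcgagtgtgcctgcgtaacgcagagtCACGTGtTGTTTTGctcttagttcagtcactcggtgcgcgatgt
Foxo1: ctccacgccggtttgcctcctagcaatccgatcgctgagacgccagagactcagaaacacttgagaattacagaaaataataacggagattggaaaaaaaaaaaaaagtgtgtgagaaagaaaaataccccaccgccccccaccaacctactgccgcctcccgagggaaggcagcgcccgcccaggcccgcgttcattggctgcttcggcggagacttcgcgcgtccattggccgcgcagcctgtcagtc
Grb14: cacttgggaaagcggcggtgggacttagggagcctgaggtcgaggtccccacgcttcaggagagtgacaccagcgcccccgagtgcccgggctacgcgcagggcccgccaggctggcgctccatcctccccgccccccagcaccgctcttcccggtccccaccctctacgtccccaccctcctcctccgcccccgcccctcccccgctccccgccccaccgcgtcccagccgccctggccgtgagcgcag

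Irs1 carried CACGTG 115 to 110 bases before its start, sharing 2 bases with TGTTTTG at 111 to 105, and another TGTTTTG at 32 to 26. Irs2 carried CACGTG at 44 to 39 bases and TGTTTTG at 37 to 31, with 1 base between them. One of the Akt1 windows held TGTTTAC at 161 to 155 bases, and the windows of Akt2, Pik3r1, Foxo1 and Grb14 held none of the motifs. Of 32851 RefSeq windows of the same length, 3.17% held TGTTTAC, 5.56% TGTTTTG and 6.02% CACGTG. An E-box with TGTTTTG following within 10 bases in the same orientation occurred in 9 windows (0.027%), those of Irs1 and Irs2 included; this combination was looked for after the sequences had been seen. A match describes letters in a window, not a bound site.

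Apoe, the gene named in the genotype, read 13.13 to 13.65 on the log2 scale in the 6 WT arrays and 9.46 to 10.26 in the 8 EKO arrays, without overlap; where its probes lie relative to the altered part of the gene is not known here. Arrays of a group correlated at 0.976 to 0.995. A background level, the mean of 1204 olfactory and other chemosensory receptor rows, lay at 6.29 to 6.56 in 9 arrays and 6.75 to 6.84 in the other 5, which were WT ND 1, WT HFD 1, EKO ND 2, EKO HFD 1 and EKO HFD 3. The lowest value of any of the 9 genes, 8.53, was above it. The mean of 11 adipocyte markers was 13.14 to 13.40, and 5 epididymis markers averaged 6.06 to 6.37, at array background. In whole tissue, fewer cells of a type and less RNA per cell cannot be told apart. Below, group levels are log2 means ± SD and differences are log2 ± standard error. All adjusted p values are from limma with Benjamini-Hochberg adjustment over the 19937 genes, two-sided, with 0.05 as threshold.

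Insr, the receptor tyrosine kinase itself, was lowest in WT mice on Western diet. Its values were 11.18, 11.45 and 11.26 in WT on normal diet and 10.73, 10.84 and 10.81 in WT on Western diet. In EKO they were 11.31, 11.16, 11.39 and 11.16 on normal diet and 11.11, 11.42, 11.19 and 11.47 on Western diet. All 3 Western-fed WT arrays lay below all 11 others, which shared 1 range. How many of all genes separated in this way was not counted, here or for the genes below. In WT the diet lowered Insr by 1.42-fold (log2 -0.50 ± 0.11, 95% interval -0.74 to -0.27, adjusted p = 0.0163). In EKO the difference was 0.05 ± 0.10 (interval -0.16 to 0.25, adjusted p = 0.957). On Western diet Insr was 0.51 ± 0.10 higher in EKO than in WT (adjusted p = 0.0114). The diet call in WT was lost without WT ND 2 (adjusted p = 0.0874), WT ND 3 (0.0522) or WT HFD 3 (0.0632), and the genotype call without WT HFD 3 (0.0567). A further Insr probe set differed by -0.52 ± 0.13 with diet in WT (adjusted p = 0.0345), by -0.04 with diet in EKO, and by 0.37 ± 0.12 between the genotypes on Western diet (adjusted p = 0.104).

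Irs1, the main IRS adaptor of fat cells, showed the largest diet difference of the 9 genes in WT. It read 10.11, 10.95 and 10.36 in WT on normal diet and 9.50, 9.24 and 9.30 in WT on Western diet, a 2.18-fold fall (log2 -1.13 ± 0.22, interval -1.60 to -0.65, adjusted p = 0.00795). In EKO it read 10.42, 10.30, 10.80 and 10.46 on normal diet and 10.04, 10.53, 9.65 and 10.20 on Western diet. Again the 3 Western-fed WT arrays were below all others. The EKO diet groups overlapped and differed by -0.39 ± 0.19 (interval -0.80 to 0.02, adjusted p = 0.946). Western-fed EKO mice were 0.76 ± 0.21 above Western-fed WT mice (adjusted p = 0.0453). The diet fall in WT passed whichever WT array was left out. The genotype call was lost without WT HFD 2 (adjusted p = 0.169), WT HFD 3 (0.191), EKO HFD 1 (0.0833), EKO HFD 2 (0.112) or EKO HFD 4 (0.108). A further Irs1 probe set lay at 5.91 to 6.64, at array background, and differed by -0.36 ± 0.11 with diet in WT (adjusted p = 0.0733).

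Irs2, the second IRS adaptor, also had its lowest group mean in WT on Western diet, without a call. It read 9.42, 9.67 and 9.85 in WT on normal diet and 9.52, 9.40 and 9.10 in WT on Western diet. In EKO it read 9.63, 9.66, 9.80 and 9.95 on normal diet and 10.04, 9.44, 9.69 and 9.93 on Western diet. The ranges overlapped in all comparisons. Diet differences were -0.31 ± 0.16 in WT (adjusted p = 0.374) and 0.01 ± 0.14 in EKO (adjusted p = 0.991). Western-fed EKO mice were 0.44 ± 0.15 above Western-fed WT mice (interval 0.12 to 0.76, adjusted p = 0.111), which passed only without EKO HFD 2 (0.55, adjusted p = 0.0493) among the arrays left out.

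Grb14, an adaptor that binds the active receptor and inhibits its kinase, had a different pattern. Its lowest group mean was in EKO on Western diet, where the highest value (9.05) was above the lowest of WT on normal diet (9.003). It read 9.689, 9.003 and 9.143 in WT on normal diet and 9.39, 9.33 and 9.79 in WT on Western diet. In EKO it read 9.49, 9.28, 9.23 and 9.62 on normal diet and 8.56, 8.53, 8.85 and 9.05 on Western diet. The EKO diet groups did not overlap, while the WT groups did. The diet difference was -0.66 ± 0.16 in EKO (interval -1.01 to -0.32, unadjusted p = 0.00107), which did not pass after adjustment (adjusted p = 0.547), and 0.22 ± 0.19 in WT (adjusted p = 0.69). Western-fed EKO mice were 0.76 ± 0.18 below Western-fed WT mice (log2 -0.76, interval -1.13 to -0.38, adjusted p = 0.0215), with no overlap. That call was lost without WT HFD 3 (adjusted p = 0.156), EKO HFD 1 (0.0619) or EKO HFD 2 (0.0595).

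Pik3r1, the regulatory PI3-kinase subunit p85 alpha, passed in none of the comparisons. Its values ran from 11.88 to 12.68 in WT and 12.17 to 12.81 in EKO on normal diet, and from 11.65 to 12.49 in WT and 11.96 to 12.85 in EKO on Western diet. Groups overlapped throughout. Diet differences were -0.22 ± 0.26 in WT (interval -0.78 to 0.35) and -0.25 ± 0.23 in EKO. Its spread was the widest of the chain apart from that of Irs1 in WT on normal diet: the SD within a group was 0.30 to 0.43. The 5 arrays of higher background averaged -0.28 from their group means for Pik3r1, against 0.16 for the other 9, and for Insr they lay below the others in 4 of 4 groups.

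Akt1 and Akt2, the kinases at the centre of the chain, of which Akt2 is the form tied to insulin's metabolic actions, did not pass either. Akt1 ran from 10.50 to 10.90 in WT and 10.52 to 10.81 in EKO on normal diet, and from 10.44 to 10.69 and 10.29 to 10.72 on Western diet. Its diet differences were -0.07 ± 0.14 in WT (interval -0.36 to 0.22, adjusted p = 0.933) and -0.17 ± 0.12 in EKO (adjusted p = 0.946). Akt2 ran from 12.35 to 12.51 in WT and 12.17 to 12.55 in EKO on normal diet, and from 12.34 to 12.74 and 12.54 to 12.70 on Western diet. Its means were higher on Western diet, by 0.16 ± 0.12 in WT (adjusted p = 0.645) and 0.20 ± 0.10 in EKO (adjusted p = 0.946), with overlapping ranges. These intervals leave room for moderate changes and do not show that the levels were equal.

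Pde3b, the phosphodiesterase through which insulin restrains lipolysis, had the smallest p of the 9 genes for diet in WT. It read 12.16, 12.43 and 12.38 in WT on normal diet and 11.65, 11.57 and 11.38 in WT on Western diet, a 1.73-fold fall (log2 -0.79 ± 0.12, interval -1.05 to -0.53, adjusted p = 0.00192). In EKO it read 12.25, 12.52, 12.41 and 12.13 on normal diet and 12.13, 12.38, 12.09 and 12.35 on Western diet. The 3 Western-fed WT arrays were below all 11 others, which overlapped with each other. The EKO diet difference was -0.09 ± 0.11 (interval -0.32 to 0.14, adjusted p = 0.947). On Western diet Pde3b was 0.70 ± 0.12 higher in EKO than in WT (adjusted p = 0.00289). Both calls passed whichever array of the groups compared was left out.

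Foxo1, the transcription factor that Akt inactivates, read lower in every mouse on Western diet than in any mouse of the same genotype on normal diet. It read 11.27, 11.07 and 11.27 in WT on normal diet and 10.84, 10.70 and 10.81 in WT on Western diet. In EKO it read 11.12, 11.27, 11.43 and 11.61 on normal diet and 10.83, 10.84, 10.81 and 11.03 on Western diet. In neither genotype did the diet groups overlap, and on each diet the genotypes did. The difference was -0.42 ± 0.12 in WT (adjusted p = 0.0494) and -0.48 ± 0.10 in EKO (interval -0.70 to -0.27, unadjusted p = 0.000284, adjusted p = 0.436, rank 13 by p of all genes). The WT call was at the edge of the threshold and was lost whichever of the 6 WT arrays was left out (adjusted p from 0.0548 to 0.18). Averaged over the genotypes, a contrast added after the Foxo1 values were seen, the diet difference was -0.45 ± 0.08 (interval -0.62 to -0.29, adjusted p = 0.00528), and it passed in all 14 fits that left out 1 array.

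**Figure D1:**
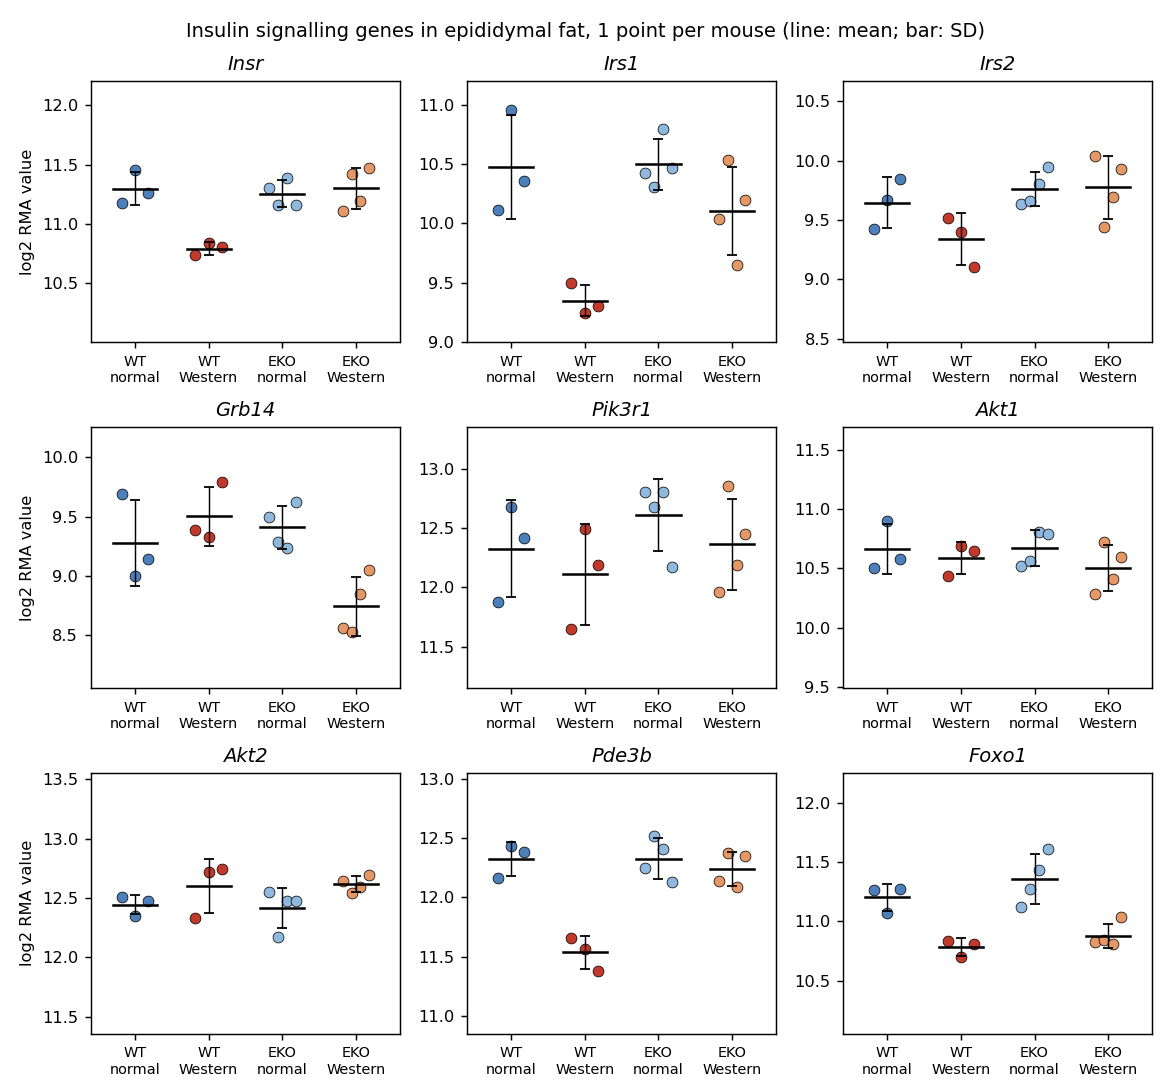
Log2 RMA value of each of the 9 genes (vertical axis) in each mouse (points), by genotype and diet, with the group mean (line) and SD (bar); each panel spans the same log2 range. Insr, Irs1 and Pde3b were lowest in the 3 WT mice on Western diet. Grb14 had its lowest group mean in EKO on Western diet, overlapping WT on normal diet. Foxo1 read lower on Western than on normal diet in both genotypes without overlap. How many of all genes separated in these ways was not counted.

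In WT, then, 4 of the 9 genes passed as lower on Western diet (Insr, Irs1, Pde3b and Foxo1) and 0 as higher. Of all genes tested, 2.3% passed as lower, 3.19% as higher and 5.49% in either direction. Because the genes were picked with earlier results of these data known, these shares describe them and are no test of the chain. The median difference was -0.31 over the 9 genes and -0.02 over all genes. In EKO the limma fit called 0 of the 9 genes and 0 (0%) of all genes for diet. At an unadjusted p under 0.05 there were 2 of the 9 genes (Foxo1 and Grb14, both lower) and 883 of all genes. The median was -0.17 over the 9 genes and 0.01 over all genes. Averaged over both genotypes, 3 of the 9 genes passed as lower (Irs1, Pde3b and Foxo1), where 1.77% of all genes passed as lower, 1.68% as higher and 3.45% in either direction.

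Between the genotypes on normal diet, 0 of the 9 genes passed in the limma fit and 0 had an unadjusted p under 0.05 (226 of all genes did). The ranges of all 9 overlapped, and how many of all genes overlapped was not counted. Their differences ran from -0.04 ± 0.10 for Insr to 0.29 ± 0.25 for Pik3r1, and 1 of all genes (0.00502%) passed. On Western diet, Insr, Irs1 and Pde3b passed as higher in EKO than in WT and Grb14 as lower. Among all genes 1.64% passed as higher, 4.05% as lower and 5.69% in either direction. The median difference on Western diet was 0.26 over the 9 genes and 0.03 over all genes. This comparison and the diet comparison in WT share the 3 WT arrays on Western diet, so the opposite signs of Insr, Irs1 and Pde3b in them are not separate evidence.

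**Figure D2:**
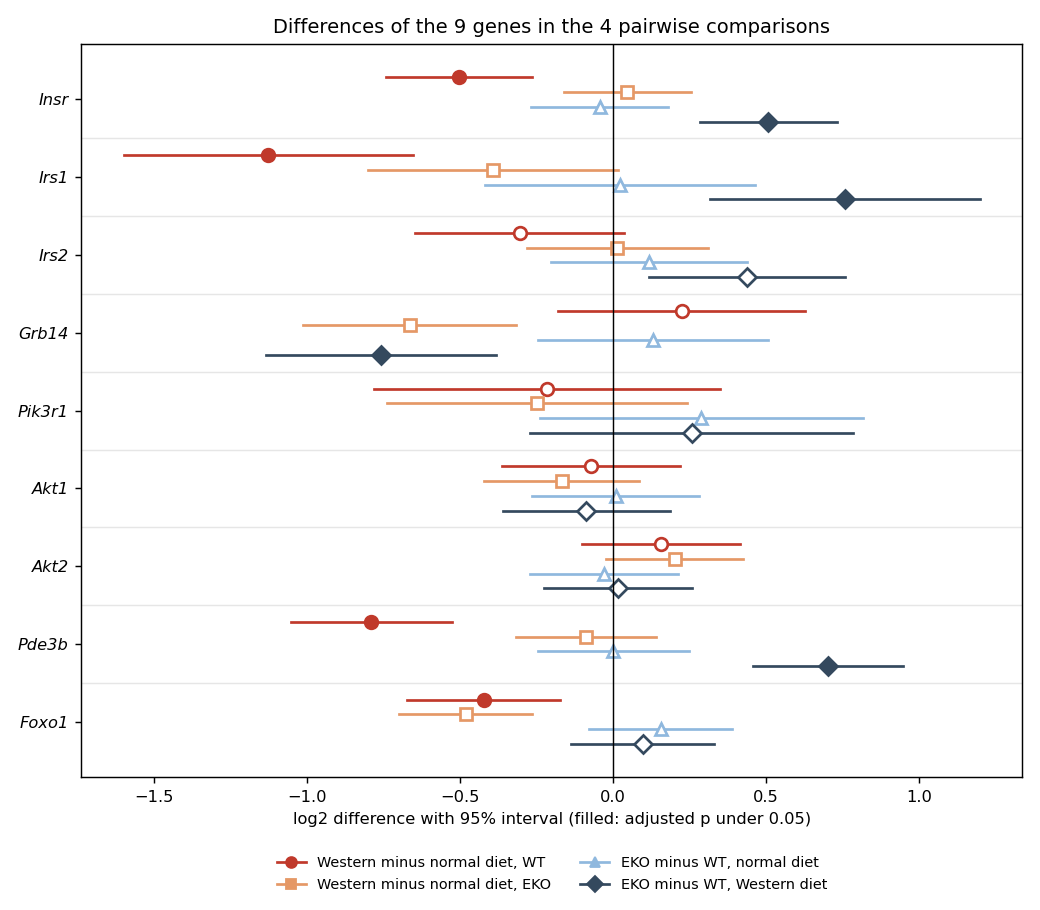
Log2 differences of the 9 genes (symbols) with 95% intervals (lines) in the 4 pairwise comparisons; filled symbols passed at an adjusted p under 0.05 in limma. Insr, Irs1 and Pde3b were lower with diet in WT and higher in EKO than WT on Western diet, whereas the intervals for the genotypes on normal diet all span 0.

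Whether the diet effect differed between genotypes was tested directly. The diet effect of EKO minus that of WT was 0.70 ± 0.16 for Pde3b (interval 0.35 to 1.05, adjusted p = 0.0774), 0.55 ± 0.15 for Insr (interval 0.23 to 0.87, adjusted p = 0.129) and 0.73 ± 0.29 for Irs1 (adjusted p = 0.349). For Grb14 it was -0.89 ± 0.25 (adjusted p = 0.146), and for Foxo1 -0.06 ± 0.15 (interval -0.39 to 0.27, adjusted p = 0.936). In this fit 0 of the 9 genes passed, where 0.145% of all genes passed with the higher diet effect in EKO, 0.336% with the lower and 0.482% in all. At an unadjusted p under 0.05 there were 4 (Insr, Irs1, Pde3b and Grb14), and 2162 of all genes. The passing of Insr, Irs1 and Pde3b in WT alone is therefore not shown to be a difference between the genotypes in this fit. With array background as a block, Pde3b (0.71 ± 0.16, adjusted p = 0.0412) and Insr (0.60 ± 0.11, adjusted p = 0.019) passed, and the calls over all genes rose from 96 to 320. Within the 9 arrays of lower background, where 566 of all genes passed, Pde3b was 1.03 ± 0.15 (adjusted p = 0.0134), Insr 0.70 ± 0.14 (0.0396), Irs1 1.19 ± 0.27 (0.0505) and Grb14 -1.15 ± 0.27 (0.0592). These groups were small: WT ND 2 and 3, WT HFD 2 and 3, EKO ND 1, 3 and 4, and EKO HFD 2 and 4.

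Within these 9 arrays the diet differences in WT were -0.54 for Insr (adjusted p = 0.0128), -1.38 for Irs1 (0.00326) and -0.93 for Pde3b (0.00151), while Foxo1 at -0.42 did not pass (0.117). With the block, the WT diet differences passed for Insr (adjusted p = 0.00174), Irs1 (0.00208), Pde3b (0.00108) and Foxo1 (0.029). On Western diet the genotypes differed within the 9 arrays by 0.62 for Insr (adjusted p = 0.00815), 1.09 for Irs1 (0.0115), 0.89 for Pde3b (0.00253) and -0.77 for Grb14 (0.0459). The 5 arrays of higher background hold 1 array in 3 of the groups and give no test of their own for these comparisons.

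Other genes of the pathway were taken from 7 lists by step, which together held 77 measured genes of 82 besides the 9. Of the 77, 4 passed as higher and 3 as lower with diet in WT, with a median of -0.06; of all genes 3.19% passed as higher and 2.3% as lower. In EKO 0 passed for diet (median -0.05), and 0 passed between genotypes on normal diet. At the receptor (8 of 9 genes measured), Igf1r, the IGF1 receptor, fell with Insr in WT (-0.56 ± 0.11, adjusted p = 0.00735). Igf2, a growth factor that binds IGF1 and insulin receptors, was higher in EKO than WT on Western diet (0.51 ± 0.10, adjusted p = 0.0115). Among 12 measured adaptors, Irs1 was the 1 that passed for diet in WT. Of 10 genes listed as inhibitors of insulin signalling, Prkcq, protein kinase C theta, rose in WT (0.44 ± 0.10, adjusted p = 0.0156). It was lower in EKO than WT on Western diet (-0.35, adjusted p = 0.0356), beside Grb14. The group means of Prkcq, 7.02 to 7.46, lay not far above array background (6.29 to 6.84).

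At the PI3-kinase step (11 of 12 genes measured), Pik3r5, a subunit of the gamma PI3-kinase found mainly in leukocytes, rose in WT on Western diet (0.63 ± 0.13, adjusted p = 0.0113). Inpp5d, the lipid phosphatase SHIP1 of blood-derived cells, rose as well (0.66 ± 0.14, adjusted p = 0.0124). Both were lower in EKO than WT on Western diet (Pik3r5 -0.56, adjusted p = 0.0142, and Inpp5d -0.57, adjusted p = 0.0182). Of 11 measured genes listed at the Akt and mTOR step, kinases and others, 0 passed in any pairwise comparison. Of 15 genes listed as Akt substrates or further downstream, 3 fell in WT, namely Pde3b, Foxo1 and Slc2a4. Slc2a4, kept in the same list though not a substrate, encodes the insulin-regulated glucose transporter GLUT4 (-0.60 ± 0.13, adjusted p = 0.0163). Slc2a4 was 0.58 ± 0.12 higher in EKO than WT on Western diet (adjusted p = 0.0139).

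Of 21 FoxO target genes, 1 rose and 2 fell with diet in WT. Pck1, the enzyme that supplies glycerol for fat storage in adipocytes, fell by 1.38 on the log2 scale (SE 0.22, adjusted p = 0.00194), Insr fell, and Sod2, mitochondrial superoxide dismutase, rose by 0.64 ± 0.15 (adjusted p = 0.0205). Pck1 was the 1 gene of the 7 lists to pass for the difference between the diet effects (1.66 ± 0.29, adjusted p = 0.0178). On Western diet Pck1 (1.48 ± 0.20, adjusted p = 0.000899), Txnip, which restrains glucose uptake (0.63 ± 0.16, adjusted p = 0.0346), and Insr were higher in EKO, and Sod2 was lower (-0.55, adjusted p = 0.0306). Over the 77 genes, 4 passed as higher and 4 as lower in EKO than in WT on Western diet, beside 1.64% and 4.05% of all genes.

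**Figure D3:**
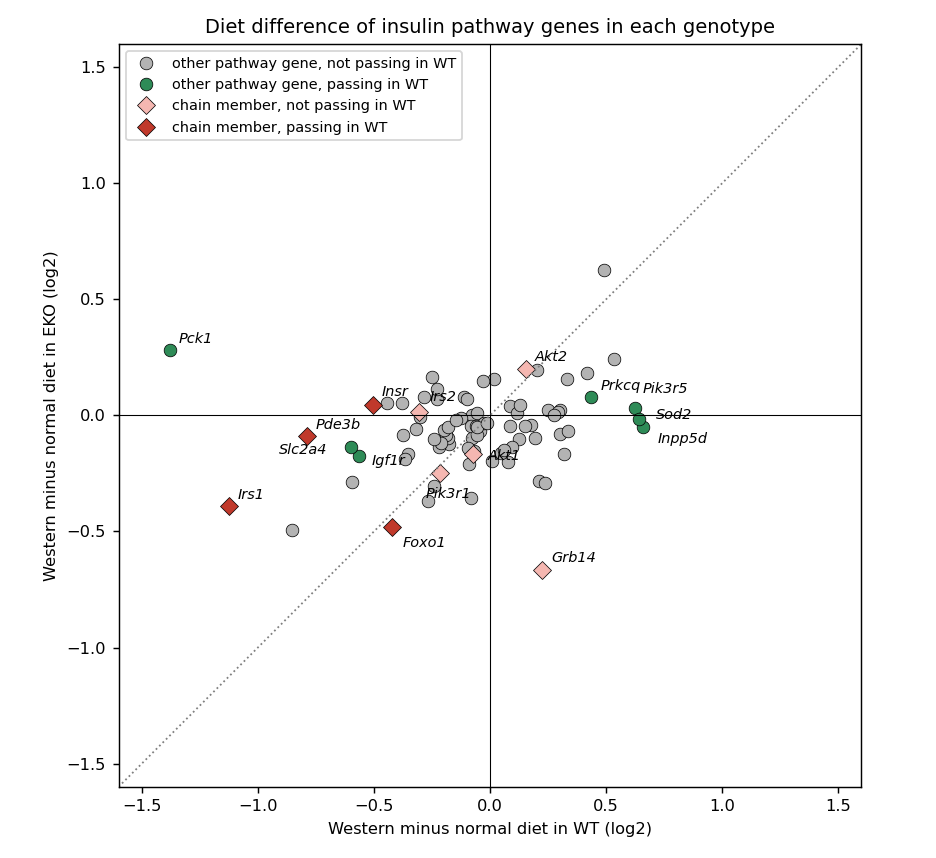
Log2 diet difference in WT (horizontal axis) against that in EKO (vertical axis) for the 9 genes (diamonds) and 77 other pathway genes (circles); green circles and dark red diamonds passed in WT and the dotted line marks equal differences. Insr, Irs1, Pde3b and Pck1 lie left of the line, Foxo1 lies near it, and Grb14 lies below 0 in EKO.

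Cell type markers moved with the diet in WT beside these results. The mean of the 10 macrophage markers was 9.58 to 9.83 in WT on normal diet and 10.66 to 11.12 in WT on Western diet, and 9.22 to 10.24 and 9.60 to 10.14 in EKO. With diet in WT 6 of the 10 passed as higher (median 1.24), and 0 passed in EKO (median 0.12). The 7 mesothelial markers averaged 10.24 to 10.67 in WT on normal diet and 9.31 to 9.49 on Western diet, with 5 lower in WT and 0 called in EKO. In EKO they averaged 9.595 to 10.193 and 9.812 to 10.121. In EKO against WT on normal diet, 7 of 7 were below 0 (median -0.40, with 0 passing). On Western diet 7 of 7 were above 0 (median 0.55, with 1 passing), and 8 of the 10 macrophage markers passed as lower in EKO (median -0.965). Of the 11 adipocyte markers 2 passed as lower in WT, Adipoq (-0.45) and Retn (-0.34), with a median of -0.12 in WT and -0.05 in EKO. The adipocyte mean was 13.30 to 13.37 and 13.14 to 13.25 in WT on normal and Western diet, and 13.34 to 13.40 and 13.18 to 13.38 in EKO. Smaller shifts without overlap between the WT diet groups were seen in the means of 7 smooth muscle and pericyte markers (9.99 to 10.22 on normal and 9.74 to 9.86 on Western diet), 7 endothelial markers (10.54 to 10.58 and 10.23 to 10.46) and 5 progenitor markers (11.22 to 11.61 and 10.98 to 11.07). Of these lists 1 gene passed for diet in WT, Myh11 of smooth muscle (-0.78 ± 0.19, adjusted p = 0.0233).

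In EKO, where Foxo1 and Grb14 read lower on Western diet, 7 of 7 smooth muscle and pericyte markers were below 0 (median -0.37, with 0 passing). Their mean was 9.995 to 10.449 on normal and 9.630 to 10.047 on Western diet, and Rgs5, a pericyte gene, differed by -0.79 ± 0.18 (adjusted p = 0.516). The mean of 6 brown fat markers was 7.54 to 7.69 and 7.75 to 7.91, without overlap. Single markers were split, with 3 above and 3 below 0 (median 0.03, with 0 passing). The largest difference was that of Cox8b (1.02 ± 0.24, adjusted p = 0.524), which in WT was 0.86 ± 0.28 (adjusted p = 0.0918). Insr, Irs1, Pde3b, Foxo1 and Grb14 moved beside these lists in the same arrays, and the part of the cell makeup in their differences was not tested.

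With the adipocyte marker mean as a covariate, given as a value with no test because it moves with the groups, the WT diet differences were -0.24 ± 0.13 for Insr, -0.85 ± 0.30 for Irs1, -0.64 ± 0.17 for Pde3b and -0.37 ± 0.17 for Foxo1. Without it the Insr difference was -0.50. Akt1 turned from -0.07 to 0.28 ± 0.15 and Pik3r1 from -0.22 to 0.38 ± 0.31. On Western diet, EKO minus WT was 0.29 ± 0.11 for Insr, 0.53 ± 0.27 for Irs1, 0.58 ± 0.15 for Pde3b and -0.75 ± 0.24 for Grb14. For Akt1 it moved from -0.09 to -0.38 ± 0.13 and for Pik3r1 it turned from 0.26 to -0.24 ± 0.28. The EKO diet differences were -0.46 ± 0.11 for Foxo1 and -0.67 ± 0.18 for Grb14, close to those without it.

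**Figure D4:**
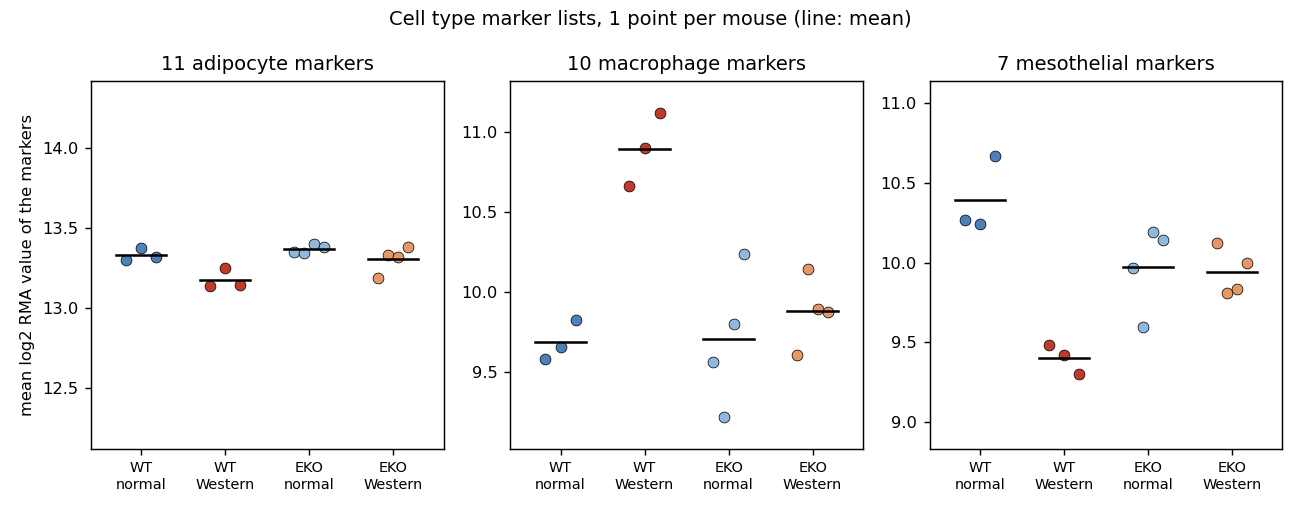
Mean log2 RMA value of the adipocyte, macrophage and mesothelial marker lists (vertical axes, equal spans) in each mouse (points), with group means (lines). In WT on Western diet the macrophage mean was 10.66 to 11.12, above all other arrays, and the mesothelial mean was 9.31 to 9.49, below them.

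For each of the 9 genes, the genes with the most similar pattern over the 14 arrays were found by Pearson's r among 17091 genes. The 9 themselves, predicted genes, small RNAs and chemosensory receptors were left out, while other genes of the pathway and marker lists were kept. For Insr they were Derl1 (r = 0.965), of endoplasmic reticulum protein disposal, and Abcd2 (0.961), a peroxisomal fatty acid transporter. For Irs1 they were Rsrp1 (0.971) and Gdap10 (0.958), and for Pde3b the phosphodiesterase Pde1a (0.979) and the kinase Sik2 (0.966). Foxo1 was nearest to Mertk (0.926), a receptor for dying cells, and Zfand3 (0.923), and Grb14 to Otub1 (0.908) and Ampd3 (0.895). Pik3r1 was nearest to Sh2b2 (0.914), itself an insulin receptor adaptor, and Aacs (0.908), and Akt1 to Taok2 (0.962) and Ano8 (0.952). Irs2 (Ebf4, 0.887, and Fbxl7, 0.87) and Akt2 (Cmklr1, 0.846, and Gpr183, 0.82) had less close neighbours. The arrays share group and background level, so these are descriptions; for Pik3r1 and Sh2b2 the r of deviations from group means was 0.913, and for Pde3b and Sik2 0.754.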

How the data were processed

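Whole epididymal fat pads of 14 mice were profiled on Affymetrix arrays (whole-transcript labelling), 1 array per mouse, in 4 groups read from the labels, which call replicates biological. The authors deposited log2 values; the submitters' processing notes name RMA, with version and settings not given in the sources used here. RMA usually quantile normalizes, which removes shifts common to most transcripts. The deposited arrays were not fully equal: their medians ran from 7.92 to 8.10. The lowest medians were those of WT HFD 3 (7.92) and WT HFD 2 (7.98), while WT HFD 1 was at 8.06. Values ran from 4.21 to 14.5, and no depth applies to arrays; their number limits the precision.

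Of 34760 rows, 21640 had 1 gene symbol, 1321 several and 11799 none. Rows with 1 symbol gave 19937 genes, each by its row of highest mean; no low values were filtered. limma 3.58.1 (R 4.3.3) was fitted with 1 mean per group to all 14 arrays, and contrasts were adjusted by Benjamini-Hochberg over all genes. The fit was tested on simulated data. All 9 genes are named, with list genes that passed, the 2 nearest genes of each, and Apoe. The members and lists were chosen with earlier results of these data known. Alternatives were a replicate block, fewer arrays, other scaling, filters, priors, array weights, probe set means, array background, an adipocyte covariate and leaving out each replicate. The contrast averaged over genotypes was added after seeing the data. Figures used matplotlib 3.10.9.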

Additional observations from a re-analysis of the deposited data

Results flagged for a closer look

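In groups of 4 arrays, 24 sets of values were tested with Dixon's criterion (critical value 0.829) and 2 stood out, where chance flags about 1 in 20. Foxo1 in EKO on Western diet read 11.03 in replicate 4 (11.032), apart from the other arrays at 10.81 to 10.84, with a gap of 0.841 of the group's range. The second Akt2 probe set read 11.95 in replicate 2 of EKO on normal diet (11.9466), with a gap of 0.878 of the range; it is 1 of the 5 arrays of higher background, and the part of background was not tested.

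The diet effects of the genotypes differed for Pck1, with EKO minus WT at 1.66 (adjusted p = 0.0178 in limma), and for the macrophage marker Itgax at -2.09 (adjusted p = 0.000604 in limma). Itgax averaged 7.91 and 10.06 in WT on normal and Western diet, and 7.97 and 8.03 in EKO.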

How the results depend on the processing

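With few arrays per group, calls near the threshold move. For diet in WT, 4 of the 9 genes passed; 2 passed with only the WT arrays (Insr adjusted p = 0.0505, Foxo1 0.0736; 479 genes in all against 1094) and 2 with median centring (Insr -0.45, adjusted p = 0.0756, Foxo1 -0.36, 0.14), and 2 to 3 when 1 array was left out. Array weights called 6 (adding Irs2, adjusted p = 0.0335, and Akt2, 0.0153), when 5224 of all genes passed. Foxo1 also missed with the trend and robust prior (0.0589). Between genotypes on Western diet, 4 passed (1134 of all genes); 2 did with median centring (Insr 0.44, adjusted p = 0.0566, Irs1 0.69, 0.102; 974 genes), 6 with array weights (adding Irs2, adjusted p = 0.00582, and Foxo1, 0.0185; 6789 genes), and 1 to 4 when 1 array was left out, 1 without WT HFD replicate 3 (316 genes) and 2 without EKO HFD replicate 1 (727). For the difference of the diet effects, 0 passed (96 of all genes); 1 did with quantile normalization (Insr, adjusted p = 0.0343; 199 genes), 3 with array weights (Insr, Irs1 and Pde3b; 2338 genes), 2 with the background block (320 genes) or within the arrays of lower background (566 genes; Insr and Pde3b in both), and 0 to 1 when 1 array was left out. In the fits that left out 1 array, 37 to 499 of all genes passed for this difference. Pde3b passed without WT HFD replicate 1 (adjusted p = 0.0326, 499 of all genes) or EKO ND replicate 2 (0.0452, 148 of all genes). Over all genes for diet in WT, median centring called 820, quantile normalization 1576, the background block 2007, the arrays of lower background 2152, and leaving out 1 array 415 to 1514. The adipocyte covariate gave values and no count. It turned Akt1 (0.28) and Pik3r1 (0.38) for diet in WT, and Irs2 (-0.0064) for diet in EKO. Between genotypes it turned Irs1 (-0.0455), Akt1 (-0.0777) and Pde3b (-0.0358) on normal diet, and Akt2 (-0.0348) and Pik3r1 (-0.24) on Western diet. For diet averaged over the genotypes it turned Akt1 (0.13) and Pik3r1 (0.19). The causes of these changes were not tested.

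Whether the replicate numbers pair the arrays was not settled. Deviations of same-numbered WT arrays correlated at 0.458, 0.187 and 0.009, and those of EKO arrays at -0.593 to 0.452. Between genotypes they correlated at -0.109 to 0.207 on normal diet and at 0.644, 0.485 and -0.114 on Western diet. Best with their own number were 2 of 6 WT and 1 of 8 EKO arrays (between genotypes, 1 of 6 on normal and 4 of 6 on Western diet). WT HFD 1 and EKO HFD 1 also share the higher background, which this check cannot separate from pairing. With the replicate block, 4 genes of the chain passed for diet in WT (1300 of all genes). Between genotypes on Western diet 3 passed (1672 of all genes), without Irs1 (0.75, adjusted p = 0.0554). In the other planned comparisons 0 genes of the chain passed. Of all genes, 159 passed there for the difference of the diet effects, 2 between genotypes on normal diet and 1 for diet in EKO.

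Under the other alternatives signs turned only where no call stood. For EKO minus WT on normal diet, values turned to -0.0017 (Pde3b), -0.0106 (Akt1) and -0.0026 (Irs1) with the background block; -0.0390 (Pde3b), 0.0006 (Akt2) and 0.0069 (Insr) with array weights; -0.0218 (Pde3b) with quantile normalization; -0.0261 (Akt1) with the replicate block; and -0.0331 (Akt1), -0.1438 (Pde3b), 0.0856 (Akt2) and -0.0952 (Irs1) within lower background. Between genotypes on Western diet, Akt2 turned to -0.0635 (array weights), -0.0534 (median centring), -0.0059 (replicate block) and -0.1166 (lower background). For diet in WT, array weights gave Akt1 0.0496 and Pik3r1 0.0564. For diet in EKO, values turned to 0.0081 (Pde3b, array weights), -0.0050 (Irs2, median centring), and 0.1005 (Pde3b), 0.0607 (Pik3r1) and -0.1092 (Irs2) within lower background. For the difference of the diet effects they turned to 0.0831 (Pik3r1, background block), -0.0641 (Akt2) and 0.0956 (Foxo1) with array weights, -0.0316 (Akt2, median centring), 0.0044 (Foxo1, quantile), and 0.0255 (Akt1), -0.2022 (Akt2) and 0.2706 (Pik3r1) within lower background.

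Leaving out 1 array gave ranges across 0 for diet in WT of Akt1 (-0.1504 to 0.0482) and Pik3r1 (-0.4396 to 0.0131), and for diet in EKO of Insr (-0.0121 to 0.1083) and Irs2 (-0.0742 to 0.1246). On normal diet they were Insr -0.1038 to 0.0334, Irs1 -0.1599 to 0.2631, Akt1 -0.0697 to 0.1289, Akt2 -0.0758 to 0.0532, Pde3b -0.0801 to 0.0663 and Grb14 -0.0069 to 0.3357. On Western diet Akt2 ran from -0.1166 to 0.0881. For the difference of the diet effects Akt2 ran from -0.0875 to 0.1172, Pik3r1 from -0.2615 to 0.1913 and Foxo1 from -0.1372 to 0.0247.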
